A study of Homo sapiens with 26 samples.

Results

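The RNA levels of 10 genes that encode proteins of stress granules were followed through 26 poly(A) RNA libraries of HCT116, a line derived from a human colorectal carcinoma. The members were a fixed list of names (G3BP1, G3BP2, CAPRIN1, UBAP2L, USP10, TIA1, TIAL1, FMR1, FXR1 and ATXN2) and were found by symbol among the 63086 genes counted; the rule uses no measured value, but the list was drawn up with earlier results of these data known. All 10 passed the filter on low counts and were among the 9099 protein-coding genes tested. All transgene cells carried Tet-OsTIR1 and knockouts of IGF2BP2 and IGF2BP3. They expressed mCherry-IGF2BP1 from a lentiviral vector as WT, S181E, Y396E or RQ. S181E and Y396E put glutamate in place of a serine or a tyrosine in the linkers of this RNA-binding protein, and RQ puts glutamine in place of arginines of its first linker. Each of these 4 populations received sodium arsenite (500 µM, 2 h) or PBS (control), in 3 dishes a group that were plated and grown independently. Parental HCT116 cells gave 1 control and 1 arsenite library. The knockouts were made in 1 clonal line and each transgene population was 1 sorted pool, so that the protein expressed and the history of its pool cannot be told apart, and the tests measured the spread between dishes of a pool.

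Stress granules are assemblies of messenger RNA and protein that appear in the cytoplasm when translation initiation stops. Arsenite, an oxidative stressor, activates the kinase HRI (EIF2AK1), which phosphorylates the initiation factor eIF2alpha, and messenger RNAs that run off their ribosomes condense with RNA-binding proteins. G3BP1 and G3BP2 are the proteins on which this condensation centres, CAPRIN1 and UBAP2L bind them and favour assembly, and USP10 competes for the same surface and opposes it. TIA1, TIAL1, the FMRP family proteins FMR1 and FXR1, and ATXN2 are RNA-binding proteins that join the granules. The granule itself is built from proteins and RNAs that are already present, and the libraries measured the RNAs that encode those proteins, not granules or protein.

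The RNA came from lysate cleared by centrifugation, so transcripts that went into the pellet were not sampled. Levels are given as CPM, the counts of a gene relative to its library total after TMM scaling, and differences as log2 fold changes with their standard error (SE). A gene was called when its Benjamini-Hochberg adjusted p from edgeR's quasi-likelihood test was below 0.05 and it changed by more than 1.2-fold (a log2 change of 0.26), adjusted over the 9099 genes of a comparison. CPM are shares of a library, so that a change in a share and a change in RNA per cell cannot be told apart, nor, in bulk samples, fewer cells of a kind and less RNA in each.

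Library totals ran from 22508145 to 50834401 counts. In Y396E arsenite replicate 3, 13897 genes had a count, against at least 20850 in the other 23 libraries of the 4 populations. Results of the members that rest on this library are marked or also given without it. The Y396E arsenite values of the other gene lists and the shares over all genes include it. Mitochondrially encoded RNA took 21.1% to 27.9% of the counts in WT and RQ control libraries and 11.7% to 17.1% in those of S181E and Y396E. In arsenite it took 10.8% to 13.5% and 7.5% to 10.1%, respectively. Transgene RNA, read as IGF2BP1 counts, was lowest in WT under both treatments: control means were 12.1 CPM for WT cells, 14.4 for RQ, 16.5 for Y396E and 18.6 for S181E, and arsenite means 29.2, 47.1, 43.2 and 43.3 CPM in the same order, against 0.348 and 0.646 CPM in the parental libraries. IGF2BP2 and IGF2BP3 RNA was still counted in the knockout cells, at 65.9 to 88.1 and 112.4 to 164.5 CPM over the 8 groups. All 6 epithelial markers examined were present in every library (EPCAM at 309.3 CPM or more), while the blood and endothelial markers PTPRC, CD3E, PECAM1 and CDH5 had at most 6 counts in any library. Of the 2 fibroblast markers, COL1A2 had at most 1 count and COL1A1 lay between 6.55 and 11.5 CPM.

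Promoter sequence was available for 9 of the 10 genes in RefSeq (GRCh38.p14). The 4 shown belong to genes that differ in their response: G3BP1, CAPRIN1 and USP10 rose in arsenite in each population, and TIAL1 was called in none. Each is written 5′ to 3′ along the gene's strand and ends just before the outermost start of the gene in the annotation of the count files. The intervals are chr5:151771704-151771893 (plus strand), chr11:34051481-34051730 (plus strand), chr16:84699750-84699999 (plus strand) and chr10:119596965-119597214 (minus strand). Capitals mark the matches to the 9 motifs searched.
G3BP1: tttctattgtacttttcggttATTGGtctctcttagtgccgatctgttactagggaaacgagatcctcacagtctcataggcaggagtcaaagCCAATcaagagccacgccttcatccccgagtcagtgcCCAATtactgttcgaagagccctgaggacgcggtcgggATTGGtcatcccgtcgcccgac
CAPRIN1: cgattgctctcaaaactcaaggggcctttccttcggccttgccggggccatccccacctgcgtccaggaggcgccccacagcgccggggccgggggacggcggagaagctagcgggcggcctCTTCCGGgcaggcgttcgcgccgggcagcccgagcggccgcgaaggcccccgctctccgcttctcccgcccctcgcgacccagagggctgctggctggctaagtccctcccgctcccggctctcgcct
USP10: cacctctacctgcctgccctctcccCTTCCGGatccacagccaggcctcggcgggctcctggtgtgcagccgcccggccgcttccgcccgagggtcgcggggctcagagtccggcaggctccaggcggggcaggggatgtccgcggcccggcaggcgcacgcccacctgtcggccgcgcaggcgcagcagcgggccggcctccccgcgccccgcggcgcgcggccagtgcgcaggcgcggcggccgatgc
TIAL1: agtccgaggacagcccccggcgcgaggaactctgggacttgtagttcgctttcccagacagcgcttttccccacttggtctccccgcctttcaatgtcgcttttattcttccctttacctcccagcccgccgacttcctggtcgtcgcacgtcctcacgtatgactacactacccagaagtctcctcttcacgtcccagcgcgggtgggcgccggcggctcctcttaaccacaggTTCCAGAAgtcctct

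The motifs were searched on both strands in the 250 bases before the start site. The capitals are 4 copies of the CCAAT box (CCAAT) in G3BP1, 1 ETS core (CCGGAAG) each in CAPRIN1 and USP10, and 1 short heat shock element (TTCNNGAA) in TIAL1. Heat shock elements are bound by HSF1, the regulator of the heat shock response. Among the 9 members, TTCNNGAA was found in TIAL1 and FXR1 (6.62% of 35116 promoter windows hold it), and the frame GAANNTTC in none (5.78%). A CCAAT box was found in 2 members (32% of windows), an ETS core in 2 (8.52%), an E-box (CACGTG) in 3, namely G3BP2, UBAP2L and FMR1 (6.34%), and an AP-1 site (TGANTCA) in UBAP2L alone (6.57%). The cyclic AMP response element (TGACGTCA), the antioxidant response element (TGACNNNGC) and the C/EBP-ATF element (TGATGNAA) were in none of the 9 windows, against 1.65%, 10.9% and 3.14% of all windows. In UBAP2L the AP-1 site overlaps 1 of its 2 E-boxes. The motifs shown in capitals overlap none of the others. TIAL1, which holds the short heat shock element, was not called in arsenite, while FXR1, which also holds it, rose.

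Levels between genes are compared per base of the gene length used in the counting, such as 3449 for USP10 and 11060 for G3BP1. This length covers the annotated exons of a gene, and the length of the transcripts expressed was not measured. The order of genes and the size of the paralog ratios below depend on it. In WT control libraries USP10 was highest at 68.6 ± 10.8 TPM (counts per base scaled to a common total; SD, n = 3), followed by TIAL1 at 49.9 ± 3.4 and CAPRIN1 at 33.2 ± 5.4. UBAP2L (24.1 ± 3.6 TPM), FXR1 (21.2 ± 3.4 TPM) and G3BP2 (19.8 ± 3.5 TPM) came next. G3BP1 (14.2 ± 2.6 TPM), TIA1 (9.7 ± 0.28 TPM), FMR1 (5.7 ± 0.70 TPM) and ATXN2 (4.6 ± 0.60 TPM) were lowest. The ranges of the 3 libraries overlapped between neighbours in this order from CAPRIN1 down to G3BP1 and between FMR1 and ATXN2, while USP10, TIAL1, CAPRIN1, and then G3BP1, TIA1 and FMR1, were apart. In WT arsenite libraries the order was USP10, CAPRIN1, UBAP2L, TIAL1, FXR1, G3BP2, G3BP1, TIA1, ATXN2 and FMR1, and no neighbours overlapped. TIAL1 was thus in place 2 in control and place 4 in arsenite, and ATXN2 passed FMR1.

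The first comparison asks how each RNA stands after 2 h of arsenite. In WT cells 8 of the 10 genes rose (36.3% of all genes tested were called higher, and 72.2% in either direction), by 0.59 to 1.81 on the log2 scale, and none fell. The median log2 change of the 10 genes was 1.09, against -0.01 for all genes tested. ATXN2 rose most, followed by UBAP2L and CAPRIN1, and FMR1 and TIAL1 were not called. In all 10 genes the 3 arsenite libraries lay above the 3 control libraries, which held for 42.7% of the genes tested. With the sign kept, so that every gene that fell counts as exceeded, the change of ATXN2 exceeded that of 98.1% of genes tested. That of G3BP1 exceeded 90.6%, that of USP10 77% and that of TIAL1 59.7%. With the sign left out, the median change of all genes tested was 0.50, above the 0.18 of TIAL1.

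**Figure D1:**
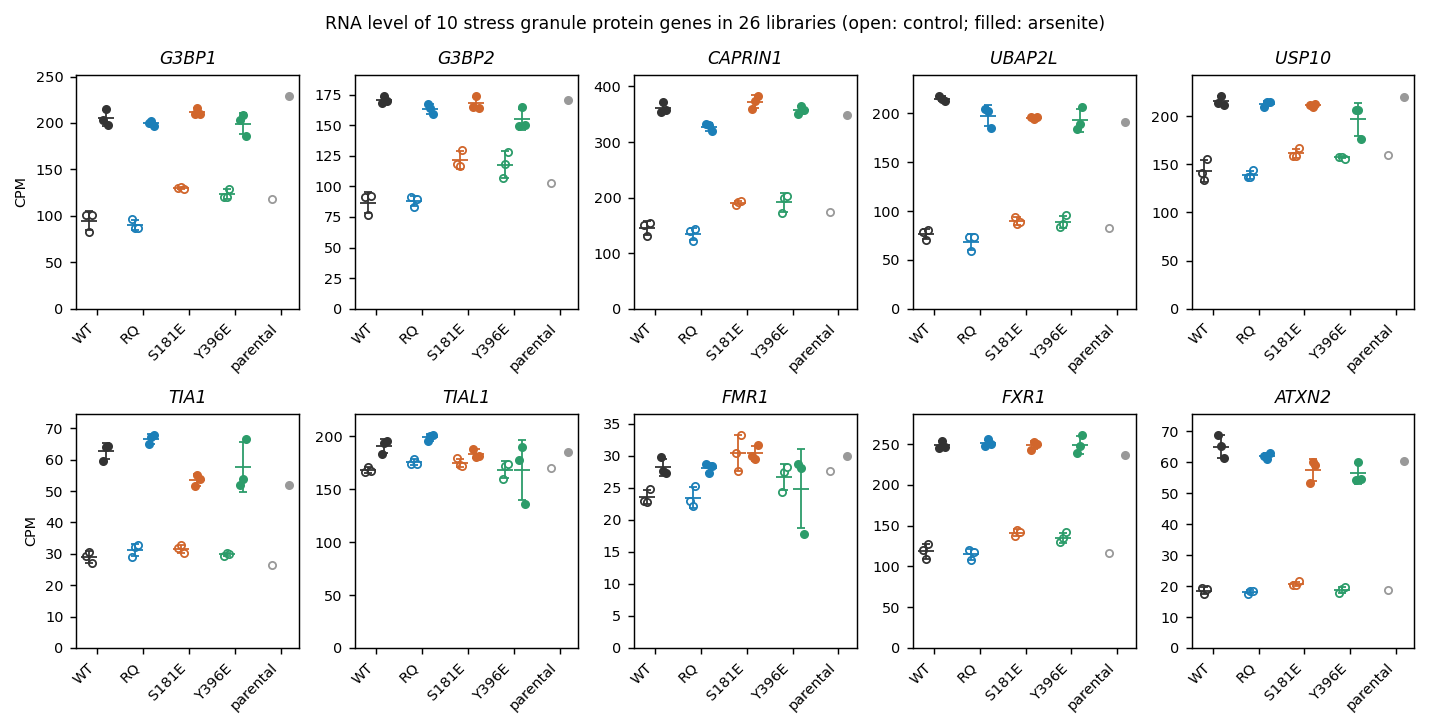
CPM of the 10 genes in each of the 26 libraries, by population (x axis), with open circles for control and filled circles for arsenite; the horizontal tick and bar are the mean and SD of 3 libraries, and the y axes start at 0. In WT cells the filled points lie above the open ones in all 10 panels, by the least in TIAL1 and FMR1.

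G3BP1, the RNA-binding protein whose condensation nucleates granules (chromosome 5, 151771894 to 151812785, plus strand, hg38), stood at 101, 82.6 and 101 CPM in the WT control libraries and at 203, 215 and 198 CPM in WT arsenite. RQ libraries held 96.8, 87.1 and 86.4 CPM in control and 199.8, 202 and 197 CPM in arsenite. S181E libraries held 129.7, 130.8 and 129 CPM in control and 209.9, 216 and 209.6 CPM in arsenite, and Y396E libraries 120.7, 120.6 and 129 CPM and then 203, 209 and 186 CPM. Control and arsenite did not overlap in any population, and the control libraries of S181E and Y396E all lay above those of WT and RQ, while the WT arsenite libraries overlapped those of each other population. The log2 fold change was 1.11 in WT cells, 1.15 in RQ, 0.71 in S181E and 0.69 in the Y396E cells, each with an SE of 0.06. Its edgeR adjusted p was 2.57e-14 in WT and 2.57e-10 or less in each of the others.

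G3BP2, its paralog with the same role (chromosome 4, 75641849 to 75724589, minus strand), stood at 91.5, 76.6 and 92.4 CPM in WT control and at 168.5, 174 and 169.5 CPM in WT arsenite. The RQ libraries ran from 83.3 to 91.2 CPM in control and from 159 to 167 CPM in arsenite. The S181E libraries held 118, 117 and 129.8 CPM in control and 165, 174 and 164 CPM in arsenite, and those of Y396E 107, 118 and 128 CPM and then 149, 165 and 150.3 CPM. Control and arsenite did not overlap in any population, the control libraries of S181E and Y396E again lay above those of WT and RQ, and the WT arsenite libraries lay above those of RQ and Y396E. WT control replicate 2 was the lowest of the 24 libraries for both G3BP genes. The log2 fold change was 0.97 (SE 0.07) in WT and 0.89 (SE 0.07) in RQ, and 0.47 (SE 0.07) in S181E and 0.40 (SE 0.07) in Y396E, all called. USO1 lies opposite to G3BP2 and ATOX1 opposite to G3BP1, and the counting separated the strands.

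CAPRIN1, a partner of the G3BP proteins that promotes assembly (chromosome 11, 34051731 to 34102610, plus strand), stood at 151, 131 and 154 CPM in WT control and at 355, 371 and 357 CPM in WT arsenite. The RQ libraries ran from 122 to 143 CPM in control and from 319 to 333 CPM in arsenite. The S181E libraries held 187, 192 and 194 CPM in control and 360, 374 and 383 CPM in arsenite. Those of Y396E held 172, 199.8 and 203 CPM and then 350.3, 364 and 357 CPM. Every S181E and Y396E control library was above every WT and RQ control library. The log2 fold change in arsenite was 1.31 in WT cells, 1.28 in RQ, 0.96 in S181E and 0.90 in the Y396E cells (SE 0.06 in each), all called.

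UBAP2L, another G3BP partner that promotes assembly (chromosome 1, 154220179 to 154271509, plus strand), stood at 78.2, 70.4 and 81.0 CPM in WT control and at 218, 215 and 213 CPM in WT arsenite. The RQ libraries ran from 58.9 to 73 CPM in control and from 185 to 205 CPM in arsenite, the S181E libraries from 86.4 to 94.4 and from 194 to 197 CPM, and the Y396E libraries from 84.1 to 96.0 and from 184 to 206 CPM. Control and arsenite libraries did not overlap. The log2 fold change was 1.49 (SE 0.07) in WT, 1.53 (SE 0.07) in RQ and 1.12 (SE 0.07) in both S181E and Y396E, all called.

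USP10, the deubiquitinase that competes with CAPRIN1 for the G3BP proteins and opposes assembly (chromosome 16, 84700000 to 84779922, plus strand), stood at 141, 134 and 156 CPM in WT control and at 214, 221 and 211 CPM in WT arsenite. It was the called gene with the smallest rise in each population, with a log2 fold change of 0.59 in WT cells, 0.61 in RQ, 0.39 in S181E and 0.32 in the Y396E cells (SE 0.05 in each). Y396E arsenite replicate 3 held 177 CPM against 207 CPM in both others of its group, and without it the log2 fold change in Y396E was 0.40.

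TIA1 and TIAL1 are paralogs whose prion-like domains help them enter granules. TIA1 (chromosome 2, 70209444 to 70248660, minus strand) stood at 29.2, 30.7 and 26.9 CPM in WT control and at 59.7, 63.9 and 64.2 CPM in WT arsenite, and rose by 1.12 (SE 0.08) on the log2 scale. It rose by 1.09 in RQ, 0.76 in S181E and 0.95 in Y396E (SE 0.08 in each). TIAL1 (chromosome 10, 119571802 to 119596964, minus strand) stood at 166, 171 and 167 CPM in WT control and at 183, 193 and 195 CPM in WT arsenite. Its 3 arsenite libraries were all above the 3 controls, but the log2 difference of 0.18 (SE 0.07, 95% interval 0.03 to 0.33) was below the fold threshold at an edgeR adjusted p of 0.0225. The log2 difference was 0.18 in RQ, 0.07 in S181E (interval -0.08 to 0.22) and -0.00 in Y396E (interval -0.15 to 0.14). In Y396E arsenite replicate 3 TIAL1 was at 136 CPM, against 178 and 189.7 CPM in the others, and TIA1 at 66.7 CPM, against 52 and 53.9 CPM. Without this library the log2 difference in Y396E was 0.13 for TIAL1, still not called, and 0.83 for TIA1.

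FMR1, which encodes the fragile X protein FMRP (chromosome X, 147911919 to 147951125, plus strand), and FXR1, its autosomal relative (chromosome 3, 180912482 to 180982753, plus strand), went apart in the same way. FXR1 stood at 119.9, 109 and 127 CPM in WT control and at 245, 254 and 246 CPM in WT arsenite. Its log2 fold change was 1.07 in WT cells, 1.13 in RQ, 0.81 in S181E and 0.88 in the Y396E cells (SE 0.05 in each), all called. FMR1 stood at 22.9, 22.8 and 24.7 CPM in WT control and at 29.7, 27.6 and 27.2 CPM in WT arsenite. The log2 difference of FMR1 was 0.26 (SE 0.12) in both WT and RQ, at edgeR adjusted p values of 0.0441 and 0.0464, just under the fold threshold, so that it was not called. FMR1 lies so near the threshold that it was called in WT without WT control replicate 3 (0.30), with all gene types (0.28) or with only the groups compared (0.27), and in RQ without RQ control replicate 3 (0.32) or with all gene types (0.27). With library totals in place of TMM, which moved the median of all genes to 0.15 in WT and 0.16 in RQ, both FMR1 (0.42 in each) and TIAL1 (0.34 and 0.35) were called, so that the uncalled pair depends on this scaling. In S181E FMR1 was at 30.4, 27.6 and 33.2 CPM in control and at 29.9, 29.4 and 31.7 CPM in arsenite, which overlap, with a log2 difference of -0.00 (interval -0.24 to 0.24). In Y396E the difference was -0.10 (interval -0.34 to 0.14), and replicate 3 of the arsenite group, at 17.8 CPM against 28.7 and 28.1 CPM, set its sign. Without that library it was 0.09. FMR1 had the widest errors of the 10 genes.

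ATXN2, which encodes ataxin-2 (chromosome 12, 111452214 to 111599676, minus strand), stood at 19.3, 17.4 and 19.0 CPM in WT control and at 68.8, 65.3 and 61.3 CPM in WT arsenite. The control libraries of the other 3 populations ran from 17.6 to 21.5 CPM and their arsenite libraries from 53.4 to 63.1 CPM. The arsenite and control libraries did not overlap in any population. The log2 fold change was 1.81 in WT cells, 1.78 in RQ, 1.47 in S181E and 1.59 in the Y396E cells (SE 0.07 in each), the largest of the 10 genes in each.

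**Figure D2:**
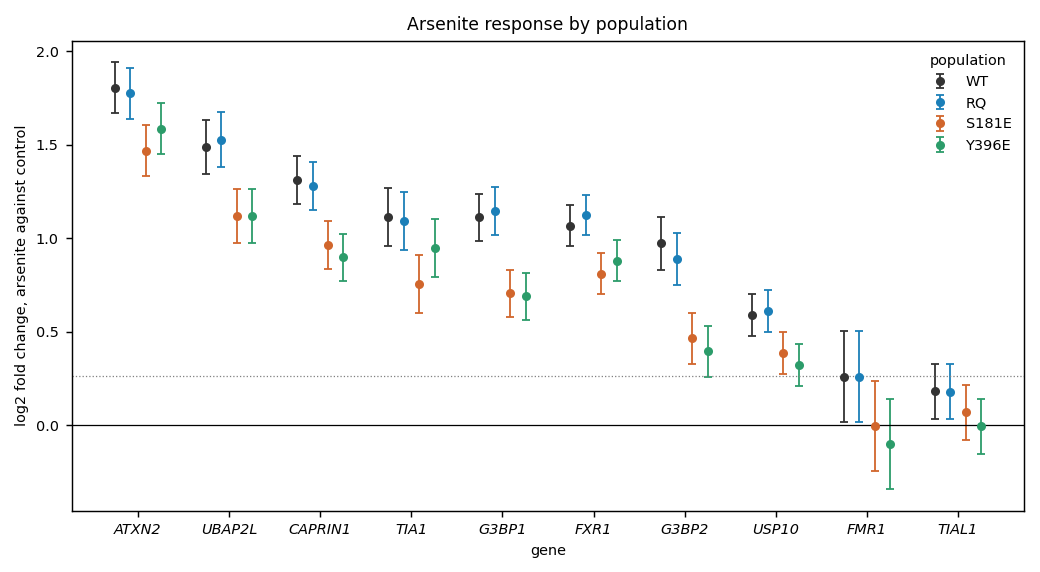
Log2 fold change of arsenite against control (y axis) for each gene (x axis, ordered by the WT value), with 1 point per population and its 95% interval; the dotted line is the fold threshold of 1.2. The S181E and Y396E points lie below the WT and RQ points for all 10 genes, and FMR1 and TIAL1 sit at or below the dotted line.

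The same 8 genes were called higher in RQ (37.1% of genes called higher), S181E (32% called higher) and Y396E (32.9% called higher). The median log2 change of the 10 genes was 1.11, 0.73 and 0.79, against -0.01, -0.03 and -0.03 for all genes tested. In the parental cells, with 1 library a treatment and so no replicate check, the log2 ratio of arsenite to control was 1.70 for ATXN2, 1.22 for UBAP2L, 1.02 for FXR1, 1.01 for CAPRIN1, 0.97 for TIA1, 0.96 for G3BP1, 0.73 for G3BP2 and 0.46 for USP10. It was 0.13 for TIAL1 and 0.12 for FMR1, the lowest of the 10 there too.

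Within each pair of paralogs the RNA shifted towards 1 member. The ratio of TIA1 to TIAL1 counts per base was 0.195 ± 0.011 (SD, n = 3) in WT control and 0.373 ± 0.0025 in WT arsenite. The ratio of FXR1 to FMR1 was 3.73 ± 0.18 and 6.54 ± 0.38, and that of G3BP1 to G3BP2 0.716 ± 0.0092 and 0.789 ± 0.023. These ratios do not depend on how the libraries were scaled, because both counts come from the same library. In control the populations were close, with TIA1 to TIAL1 between 0.195 and 0.206 and FXR1 to FMR1 between 3.47 and 3.76. In arsenite TIA1 to TIAL1 was 0.380 in RQ and 0.331 in S181E, and in Y396E the value was 0.404 ± 0.133 with replicate 3 at 0.557 and the lowest library at 0.323. No stretch of 50 bases was shared between the annotated transcripts of the members of a pair.

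**Figure D3:**
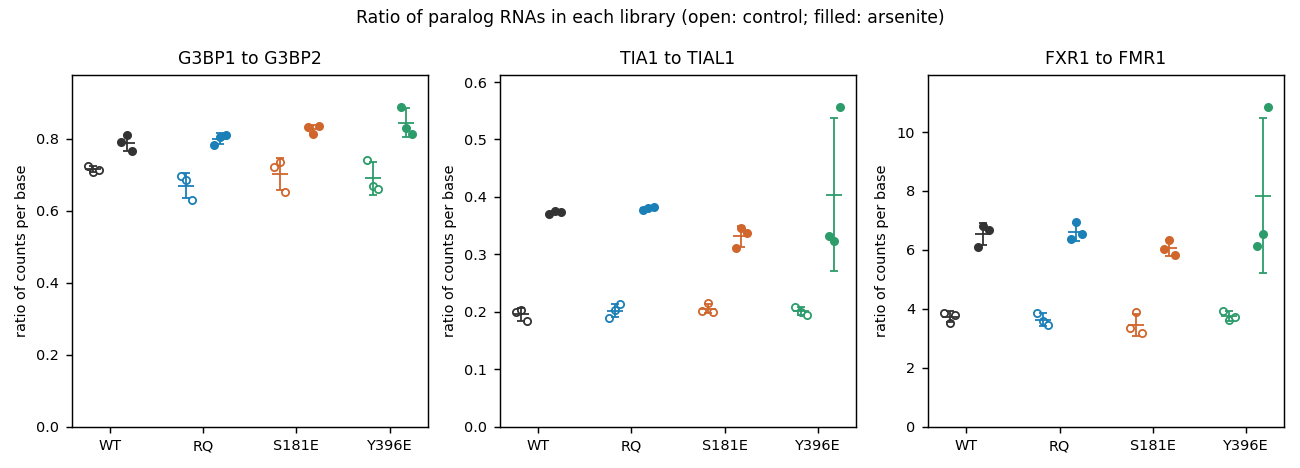
Ratio of counts per base between paralogs in each of the 24 libraries (y axes start at 0), by population (x axis), with open circles for control and filled circles for arsenite; ticks and bars are the mean and SD of 3 libraries. The arsenite points lie above the control points in each panel and population, and Y396E arsenite replicate 3 stands apart for TIA1 to TIAL1 and FXR1 to FMR1.

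The next comparisons ask whether the mutants differ from WT without stress. The 3 mutants were compared with the same WT libraries. In control, S181E had 4 members called higher and none lower (15.7% of genes tested called higher). These were G3BP2 by 0.48 (SE 0.07, adjusted p 3.03e-06 by edgeR), G3BP1 by 0.45 (SE 0.06, adjusted p 2.31e-06 by edgeR), CAPRIN1 by 0.39 (SE 0.06, adjusted p 1.45e-05 by edgeR) and FMR1 by 0.37 (SE 0.12, adjusted p 0.011 by edgeR). FXR1 was 0.26 higher, UBAP2L 0.23 and USP10 0.17, with edgeR adjusted p values of 0.00032, 0.00882 and 0.0105, but below the fold threshold. TIAL1 at 0.06, TIA1 at 0.13 and ATXN2 at 0.16 did not pass the test. The 3 S181E libraries were all above the 3 WT libraries for 9 of the 10 genes, TIA1 being the exception (31.8% of genes tested). The call of FMR1 rested on S181E control replicate 3 and was lost without it (0.30, adjusted p 0.0683 by edgeR). FXR1 was called without WT control replicate 1 (0.26), S181E control replicate 1 (0.28) or WT control replicate 3 (0.31), and UBAP2L without the last of these (0.27).

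In control, Y396E had 3 members called higher and none lower (14.5% of genes tested called higher). They were G3BP2 by 0.44 (SE 0.07), CAPRIN1 by 0.40 (SE 0.06) and G3BP1 by 0.38 (SE 0.06), at edgeR adjusted p values of 1.4e-05, 1.45e-05 and 2.78e-05. UBAP2L was 0.21 higher, FXR1 0.19 and USP10 0.13, with edgeR adjusted p values of 0.0164, 0.00499 and 0.0488, but below the fold threshold. FMR1 at 0.18 did not pass the test (adjusted p 0.223 by edgeR). ATXN2 at 0.02, TIA1 at 0.04 and TIAL1 at 0.00 lay near WT. G3BP1, G3BP2 and CAPRIN1 were thus 30.0% to 39.8% above WT over the 2 mutants. Mitochondrial RNA was lower in the same libraries (11.7% to 17.1% against 21.1% to 26.9% of counts in WT), and its part in this difference was not tested. Transgene RNA (16.5 and 18.6 against 12.1 CPM in WT) and IGF2BP3 RNA (164.5 CPM in Y396E and 159.9 in S181E, against 117.8 in WT) were higher in these control groups too, and their part was not tested either. With the mitochondrial genes left out and libraries scaled by their totals, an alternative added after seeing the data, 5 members were called in S181E and 3 in Y396E. Of all genes fitted in this way, 32.1% and 29.2% were called in either direction. The single parental control library stood at 118 CPM for G3BP1, 103 CPM for G3BP2 and 173 CPM for CAPRIN1, each above the 3 WT control libraries and, for G3BP1 and G3BP2, below the Y396E and S181E libraries.

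RQ differed from WT in none of the 10 genes in control (1.43% of genes tested called in either direction), with log2 differences from -0.16 for UBAP2L to 0.11 for TIA1. In the edgeR fit 1 of these, UBAP2L, had an unadjusted p under 0.05 (0.0314). The 95% interval for G3BP1 was -0.21 to 0.05 and that for G3BP2 -0.12 to 0.16, which leaves out differences of the size seen in S181E and Y396E. DESeq2 called 0 of the 10 as well.

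**Figure D4:**
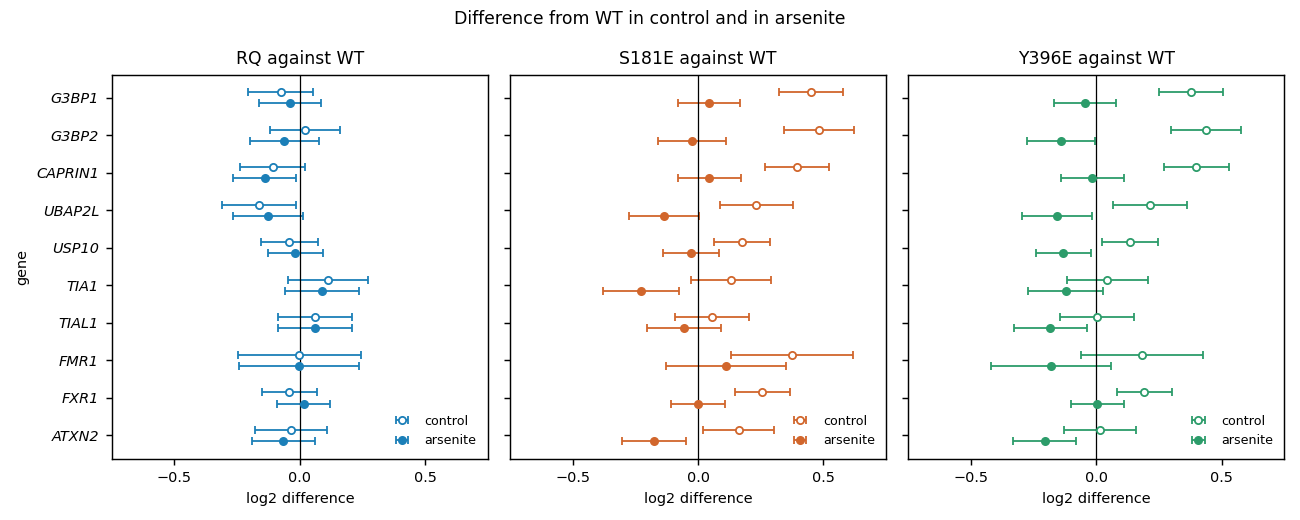
Log2 difference of each mutant population from WT (x axis) for the 10 genes (y axis), with open circles for control, filled circles for arsenite and 95% intervals. In S181E and Y396E the open points of G3BP1, G3BP2 and CAPRIN1 lie at 0.38 to 0.48 and the filled points between -0.14 and 0.05, while in RQ both lie near 0.

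In arsenite none of the 10 genes was called in any mutant against WT. This stands against 13.7% of genes tested in S181E, 21.7% in Y396E and 1.52% in RQ, called in either direction. For S181E the log2 differences ran from -0.23 (TIA1, adjusted p 0.0248 by edgeR) to 0.11 (FMR1), and 2 genes, TIA1 and ATXN2 (-0.18), had an unadjusted p under 0.05. For Y396E they ran from -0.21 (ATXN2, adjusted p 0.0114 by edgeR) to 0.00 (FXR1), and 5 genes had an unadjusted p under 0.05, all of them lower than WT. Without Y396E arsenite replicate 3 the Y396E difference was -0.05 for TIAL1, -0.06 for USP10 and 0.01 for FMR1, and TIA1, at -0.24 in place of -0.12 (adjusted p 0.00173 by edgeR), was the lowest in place of ATXN2 (-0.18), with none called. For RQ they ran from -0.14 (CAPRIN1, unadjusted p 0.0298 in the edgeR fit) to 0.09 (TIA1), and CAPRIN1 was the 1 gene under 0.05. DESeq2 called none in any of the 3. The intervals for G3BP1 were -0.08 to 0.17 in S181E and -0.17 to 0.08 in Y396E, so that the difference seen in control was not seen in arsenite. Without Y396E arsenite replicate 2, TIAL1 was called lower in Y396E (-0.28, adjusted p 0.00237 by edgeR), a call that rests on replicate 3, without which the difference was -0.05 (adjusted p 0.436 by edgeR).

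The last comparison tests whether the arsenite response itself differed from that of WT, as an interaction in the same model. The 3 tests share the WT libraries, and the WT control libraries also enter the comparisons in control above, so that these results are not independent of each other. In arsenite the transgene RNA stood at 43.2 to 47.1 CPM in the mutants and 29.2 CPM in WT, and its part in the differences was not tested. Over all genes tested, the median size of the arsenite change, sign left out, was 0.50 on the log2 scale in WT and 0.52 in RQ. It was 0.39 in S181E and 0.40 in Y396E. How much of the members' smaller responses goes with this was not tested. In S181E 6 of the 10 responses were smaller than in WT and none larger (9.41% of genes tested called lower). G3BP2 differed by -0.51 (SE 0.09), G3BP1 by -0.41 (SE 0.09), UBAP2L by -0.37 (SE 0.10), TIA1 by -0.36 (SE 0.11), CAPRIN1 by -0.35 (SE 0.09) and ATXN2 by -0.34 (SE 0.09). Their edgeR adjusted p values ran from 0.00106 for G3BP2 to 0.0212 for TIA1. The remaining 4 differed by -0.26 (FMR1 and FXR1), -0.20 (USP10) and -0.11 (TIAL1) and were not called, FXR1 because its fold was below the threshold (adjusted p 0.0181 by edgeR). The call of TIA1 was lost without S181E arsenite replicate 1 or S181E control replicate 2 (-0.33 each), and that of ATXN2 without WT control replicate 2 (-0.29). FXR1 was called at -0.26 to -0.31 without WT control replicate 1 or 3, S181E control replicate 1, WT arsenite replicate 1 or 3, or S181E arsenite replicate 2, and USP10 without WT control replicate 3 (-0.26).

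In Y396E 5 of the 10 responses were smaller than in WT and none larger (11.1% of genes tested called lower). G3BP2 differed by -0.58 (SE 0.09), G3BP1 by -0.42 (SE 0.09), CAPRIN1 by -0.42 (SE 0.09), UBAP2L by -0.37 (SE 0.10) and USP10 by -0.27 (SE 0.08), with edgeR adjusted p values from 0.000217 for G3BP2 to 0.0143 for USP10. The call of USP10 was lost without WT control replicate 1 (-0.25) or 2 (-0.22), Y396E control replicate 1 or 2 (-0.26 each), WT arsenite replicate 2 (-0.25) or Y396E arsenite replicate 3 (-0.19), and at -0.26 with DESeq2, with RLE scaling and with only the groups compared. Without Y396E arsenite replicate 3 TIA1 was called instead (-0.28, adjusted p 0.0108 by edgeR) and the other 4 calls held, with G3BP2 at -0.55 and G3BP1 at -0.37. Without Y396E arsenite replicate 2, which leaves replicate 3 as 1 of the pair, 8 members were called, with TIAL1 (-0.29), FMR1 (-0.47) and ATXN2 (-0.27) added. FMR1 was also called without Y396E arsenite replicate 1 (-0.47) and ATXN2 without Y396E control replicate 1 (-0.27). RQ had no member called (0.22% of genes tested called in either direction), no member with an unadjusted p under 0.05, and differences from -0.08 (G3BP2) to 0.06 (FXR1). DESeq2 called 0 of 10 there too.

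The spread between populations was wider in control for the G3BP proteins and their partner CAPRIN1 and wider in arsenite for TIA1. The highest population mean was 1.44 times the lowest for G3BP1 in control and 1.06 times in arsenite, and these ratios were 1.40 and 1.10 for G3BP2, 1.42 and 1.14 for CAPRIN1 and 1.23 and 1.01 for FXR1. The ratio was larger in arsenite for TIA1 (1.09 and 1.24), TIAL1 (1.04 and 1.18) and ATXN2 (1.14 and 1.15), and the arsenite values include Y396E arsenite replicate 3. It was smaller in arsenite for 7 of the 10 members (70%) and for 57.3% of all genes tested, as a description.

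The genes whose log2 CPM ran most like a member's, by Pearson r over the 24 libraries, were SUPT16H for G3BP1, BUB1B for CAPRIN1, PGD for UBAP2L and HNRNPH1 for FXR1. The libraries form a control and an arsenite cluster and share depth and scaling between all genes, so r is given within each treatment and as a description. These genes were picked for the highest r over the same libraries, and the control libraries also differ by population. A high r within control was thus partly set in advance. Over the 12 control libraries r was 0.977 for SUPT16H, 0.977 for BUB1B, 0.965 for PGD and 0.991 for HNRNPH1, each with its member. Over the 12 arsenite libraries it was 0.822, 0.886, 0.817 and 0.368, so that the likeness of HNRNPH1 to FXR1 was seen in control and hardly in arsenite. For the top genes of the other members, r in control was 0.97 (G3BP2), 0.90 (USP10), 0.86 (FMR1), 0.71 (ATXN2), 0.53 (TIA1) and 0.43 (TIAL1).

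The other proteins of stress granules were taken as a list of 35 genes, all tested. In WT arsenite 26 rose and 2 fell (36.3% and 35.9% of all genes tested), with a median log2 change of 0.61 against -0.01 for all genes tested. SND1, a nuclease-domain protein, and the helicase MOV10 rose by 2.01 each and the initiation factor EIF4G1 by 1.56, the former 2 by more than any member and EIF4G1 by more than any member but ATXN2. The 2 that fell were PABPC1, the cytoplasmic poly(A)-binding protein, by 0.58 on the log2 scale, and CNBP, by 0.40. In control 11 of the 35 were higher and 2 lower in S181E than in WT (15.7% and 15.4% of all genes), and 8 and 2 in Y396E (14.5% and 14.2%). PABPC1 differed from WT by -0.92 in S181E and -0.93 in Y396E. In arsenite 3 were lower than WT in each of these mutants, against 8.42% of all genes in S181E and 11.9% in Y396E, the largest differences being those of the double-stranded RNA-binding protein STAU2 (-0.72 and -0.79) and of PABPC1 (-0.68 and -0.71). PABPC1 and STAU2 lie on chromosome 8, as do ZFAND1, LSM1 and AGO2 of the lists below, and no member lies there. AGO2 was lower than WT in S181E and Y396E, both in control (-0.46 and -0.58) and in arsenite (-0.54 and -0.60). LSM1 was not called in these comparisons. The arsenite response minus that of WT, with its sign, was called lower for 9 of the 35 in S181E (9.41% of all genes). In Y396E it was called lower for 10 (11.1%). Such a value can be a smaller rise or a larger fall.

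Of 20 genes that control granule assembly or clearance, 18 were tested (DYRK3 and HSPB8 did not pass the filter), and in WT arsenite 10 rose and 3 fell (36.3% and 35.9% of all genes). The co-chaperone BAG3 rose by 2.99, PPP1R15A, the stress-induced subunit of the eIF2alpha phosphatase, by 2.22, and the segregase VCP by 1.83. ULK2, CSNK2B and ZFAND1 fell by 0.65, 0.33 and 0.26 on the log2 scale. In control VCP and the kinase EIF2AK2 were higher and ZFAND1 lower than in WT in both S181E (0.59, 0.51 and -0.70) and Y396E (0.47, 0.45 and -0.69). In arsenite 3 of the 18 were lower than WT in S181E and 5 in Y396E (8.42% and 11.9% of all genes). BAG3 was among them in both mutants (-0.60 and -0.51). The arsenite response minus that of WT, again with its sign, was called lower for 6 of the 18 in S181E and for 6 in Y396E (9.41% and 11.1% of all genes). Of 18 proteins of processing bodies, the related granules of mRNA decay, 10 rose in WT arsenite and 4 fell, against the same shares of all genes. The decapping activator EDC4 rose by 1.52, PNRC1 by 1.67 and the exonuclease XRN1 by 1.28, while LSM1, AGO2 and DCP2, the decapping enzyme, fell by 0.94, 0.55 and 0.49 on the log2 scale. The arsenite response minus that of WT was called lower for 1 of these 18 in Y396E, the decapping factor DCP1A (-0.49). In S181E it was called lower for 0 of the 18. The shares of all genes were 11.1% and 9.41%.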

How the data were processed

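Poly(A) RNA of 26 HCT116 libraries was sequenced as single reads. Per the labels and the study's methods, the authors aligned reads to hg38 with STAR 2.7.11b and counted them per gene with featureCounts (Subread 2.0.6); per the file headers, strand setting 2 and GENCODE release 46 were used. The deposited values are whole-number counts, not normalized. Symbols came from GENCODE release 44 (62541 of 63086 identifiers, 99.1%, matched). Reads that fit several places were not counted by default. Depth was 22508145 to 50834401 counts per library.

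Groups came from the labels. Protein-coding genes over 10 CPM in at least 12 of the 24 transgene libraries were tested (9099) with TMM factors of 0.865 to 1.086 in edgeR 4.0.16 (R 4.3.3), in 1 quasi-likelihood model with 8 group means (glmQLFit and glmQLFTest, 16 residual degrees of freedom), for 13 comparisons. P-values were adjusted by Benjamini-Hochberg. DESeq2 1.42.0, other scalings, filters and fold thresholds, a replicate block and leaving out each library were tried as alternatives. All 10 members are named; of the other lists, the called genes with the largest rises and falls (up to 3 of each in the WT response, 2 elsewhere) could be named, with PABPC1 as an exception. The members and lists were chosen with earlier results of these data known. Same-numbered WT and RQ libraries deviated together (correlations of 0.29, 0.53 and 0.47 in control and 0.15 each in arsenite), which did not hold for all pairs of any other comparison. The model was tested on simulated data. Immunoprecipitation libraries were not used here. Python 3 scripts drew the figures.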

Additional observations from a re-analysis of the deposited data

Results flagged for a closer look

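In 11 cases the arsenite response of a member in a mutant differed from that in WT by the test of the difference itself (edgeR interaction). In S181E the differences on the log2 scale were -0.51 for G3BP2, -0.41 for G3BP1, -0.37 for UBAP2L, -0.36 for TIA1, -0.35 for CAPRIN1 and -0.34 for ATXN2. In Y396E they were -0.58 for G3BP2, -0.42 for G3BP1, -0.42 for CAPRIN1, -0.37 for UBAP2L and -0.27 for USP10. All 11 were smaller responses than in WT. The median size of the arsenite change over all genes tested was also smaller in S181E (0.39) and Y396E (0.40) than in WT (0.50). In the parental cells (1 library a treatment, not tested), the log2 ratio was below the WT value for each of these genes. It was 0.96 for G3BP1, 0.73 for G3BP2, 1.01 for CAPRIN1 and 1.22 for UBAP2L. For TIA1 it was 0.97, for ATXN2 1.70 and for USP10 0.46. G3BP1, G3BP2 and CAPRIN1 were higher than WT in control in both mutants and not called in arsenite, whereas TIA1 and ATXN2 in S181E were 0.13 and 0.16 from WT in control and -0.23 and -0.18 from WT in arsenite, none of them called. The share of mitochondrial RNA differed between the same control groups, and its part in these differences was not tested.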

How the results depend on the processing

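No called value of a member changed sign under any alternative tried. With library totals in place of TMM, 10 members were called in the WT and RQ responses (70.7% and 72.1% of all genes called), 9 in S181E against WT in control (42.7% of all genes), 6 in Y396E in control (36.8%) and 9 for the response of Y396E minus that of WT. This scaling moved the median of all genes to 0.18 and 0.14 in the 2 control comparisons, 0.15 in the WT response and -0.12 in the Y396E interaction, so values there are relative to that shift; the share of calls that were higher was 83.6% (S181E, control), 81.1% (Y396E, control), 61.6% (WT response), 62% (RQ response), 13% and 18.2% (interactions of S181E and Y396E). With no fold threshold, 7 and 6 members were called in S181E and Y396E in control, against 47.3% and 44.2% of all genes. In arsenite 2 members were called in each. At a fold of 1.5, 0 members were called in S181E or Y396E in control (5.25% and 4.58% of all genes). For their response minus that of WT 0 were called as well. Leaving out 1 library each gave 0 to 1 members for Y396E in arsenite and 4 to 8 for the response of Y396E minus that of WT, with the highest of both (1 and 8) without Y396E arsenite replicate 2; the sources of these moves were not tested further. With a replicate block, 8 members were called for each arsenite response, 4 and 3 in S181E and Y396E in control, 6 and 5 for their interactions and 0 for RQ, as without it; for RQ against WT in control, the block moved the called genes from 130 to 148 in the full model and from 71 to 298 with only those groups fitted, 0 of them members. Over single genes, 4841 values kept their side of the threshold, 63 moved past it and 36 fell short of it. TPM with library totals was not run, since TPM has no such factor. FMR1 and ATXN2 had the lowest levels of the members, and the effect of depth on their errors was not tested.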
